A study of Mus musculus with 30 samples.

Results

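IL-10 producing mouse CD4 T cells of 2 kinds were compared: 3 libraries of Tr1 cells (replicates 16, 17 and 18) and 3 of Th17 cells (replicates 10, 11 and 12). They were picked by their titles, which call them IL-10 positive, and make up 6 of the 30 RNA-seq libraries of the study. The C57BL/6 donors of the naive T cells carried 2 reporters, GFP for Foxp3 and Thy1.1 for IL-10. Both kinds of culture, and those of all other groups, lasted 72 h with 2.5 ug/ml anti-CD3 and with 6 irradiated splenocytes per T cell, depleted of CD4 cells, as feeders. Tr1 cells were made with IL-27 alone (25 ng/ml). Th17 cells were made with TGF-beta 1 (2 ng/ml) plus IL-6 (25 ng/ml) and are the non-pathogenic kind. The 2 groups thus differ in 3 cytokines at once, and the part of each cannot be told apart. From each culture, 2000 live cells per library were sorted as TCR-beta positive, CD4 positive and GFP negative, so that Foxp3-GFP positive cells of either culture were left out. The IL-10 negative libraries of the same 2 cultures (3 of Tr1, 3 of Th17) gave a second comparison, and IL-10 positive libraries of Th1, Th2 and pathogenic Th17 (pTh17) cultures were used only to place levels. The Th1 cells were made with IL-12 (20 ng/ml), the Th2 cells with IL-4 (20 ng/ml), and the pTh17 cells with IL-6 (25 ng/ml), IL-1b (20 ng/ml) and IL-23 (20 ng/ml). Unless the negative compartment is named, Tr1 and Th17 stand below for the IL-10 positive libraries.

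IL-27 acts through a receptor made of Il27ra and gp130 (Il6st), signals through STAT proteins, and is known to turn mouse CD4 T cells into IL-10 producing Tr1 cells. IL-6 uses the same gp130 chain with Il6ra and acts mainly through STAT3, while TGF-beta acts through SMAD2 and SMAD3; together they induce the IL-17 cytokines of Th17 cells. IL-10 itself restrains inflammation, and T cells can make it within several effector programmes, which is why IL-10 producers of different origin are set side by side.

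Total expected counts were 4394704 to 5391667 in the Tr1 libraries and 9410288 to 9774881 in the Th17 libraries. The shallower Tr1 libraries nevertheless held more genes with at least 1 count, 16911 to 17531, against 15290 to 15799 in the Th17 libraries. After random thinning of every library to 1 depth the numbers were 16911 to 17069 in Tr1 and 13969 to 14395 in Th17 libraries. They were 14552 to 15352 in Tr1 IL-10 negative libraries, and at most 15650 in any library of the study outside the Tr1 IL-10 positive group. The excess was thus particular to the Tr1 IL-10 positive libraries, and its cause was not tested. Correlations of log CPM (counts scaled by library size with TMM factors, the level unit used throughout) between replicates were 0.971 to 0.975 in Tr1 and 0.987 to 0.988 in Th17. Tr1 replicate 18 stood apart from the other 2, with 32.8% of its counts in its 10 most abundant genes against 24.9% and 24.6%, and without it 3917 genes were called higher and 3886 lower, against 4194 and 4016 with it. Whether replicates are separate cultures, or cells of separate animals, is not in the labels, and all p-values rest on the spread among the libraries alone, which may be technical. The labelled cell type was checked by its markers. The 13 genes of the T cell receptor complex summed to 10566 to 10983 CPM in Tr1 and 6369 to 6790.4 CPM in Th17 libraries, and Cd4 read 688, 698 and 657 CPM in Tr1 libraries, against 743, 683 and 711 CPM in Th17 libraries, with overlapping groups. Foxp3, against whose reporter the cells were sorted, averaged 1.36 CPM in Tr1 and 0.878 CPM in Th17. Markers of other cells were low but not even. B cell genes summed to 8.41 to 13.1 CPM in Tr1 and 3.11 to 4.20 CPM in Th17 libraries, with 3 of 8 tested members higher, 1 lower (0 to 2 under the alternatives) and Pax5 and Fcrla at 0 throughout. Myeloid genes summed to 8.21 to 9.20 CPM in Tr1 and 0.776 to 4.20 CPM in Th17, with 4 of 7 tested members higher (1 after thinning or with only the compared libraries), 1 lower (0 in 3 alternatives) and S100a8 at 0 throughout. The single tested genes of the gamma delta T cell list, Sox13, and of the erythroid and platelet list, Itga2b, were not called.

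Most of the transcriptome differed between the 2 kinds of IL-10 producer. Of 12611 tested genes, 8210 were called (65.1%) by edgeR's quasi-likelihood test at a Benjamini-Hochberg adjusted p below 0.05, 4194 of them higher in Tr1 (33.3%) and 4016 lower (31.8%). At least 2-fold differences were called for 2198 genes higher in Tr1 (17.4%) and 1719 lower (13.6%). The values of the libraries did not overlap between the groups for 8446 genes (67.0%). A gene group with shares near these 2 percentages is no different from the genes at large. The median log2 fold change of all tested genes, Tr1 minus Th17 here and throughout, was 0.03. The biological coefficient of variation that edgeR estimated was 10.6% in Tr1 and 7.21% in Th17. Where a gene is given below with the values of its 6 libraries, the 2 groups do not overlap unless the text says that they do.

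**Figure D1:**
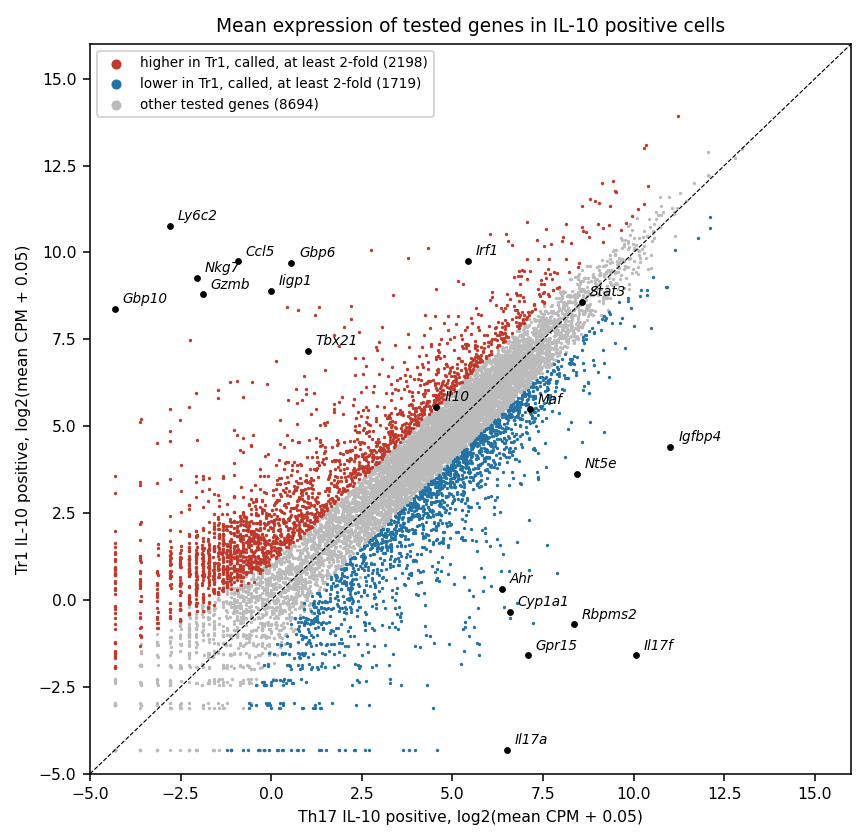
Mean expression of each of the 12611 tested genes in Tr1 IL-10 positive (vertical axis) and Th17 IL-10 positive libraries (horizontal axis), both as log2 of the mean CPM of 3 libraries plus 0.05. Red and blue points are genes called higher (2198) and lower (1719) in Tr1 by at least 2-fold, and named genes lie far from the dashed line of equal level except Il10, Maf and Stat3.

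Gzmb, Ccl5 and Gbp10 were among the genes that rose most in Tr1, and Il17a and Il17f among those that fell most. The 15 called genes with the largest rise, among those of at least 10 CPM whose groups stood apart, were Ly6c2, Gbp10, Nkg7, Gzmb, Ccl5, Gbp6, Iigp1, Usp18, Serpina3f, Tm6sf1, Klrk1, Ccl3, Ifit1, Gbp8 and Ifit3. Ly6c2, which encodes a surface protein of the Ly6C family, read 1636, 1715 and 1823 CPM in Tr1 libraries, against 0, 0.0934 and 0.187 CPM in Th17 libraries. In the Th17 libraries this came from 3 counts in all, so the ratio of 18240.5-fold has an exact 95% counting interval of 6241 to 88456. Such floors and intervals cover counting error only. Gbp10 read 331, 339 and 333 CPM in Tr1 libraries and was at 0 in all 3 Th17 libraries, which makes it at least 3535-fold higher against a floor of 3 counts over the Th17 group. Gbp6, Gbp8 and Gbp10 are near-identical in places, so the division of reads among them is uncertain, as it is for Serpina3f and Ifit3, which have close copies. Few counts in Th17 also give wide intervals for Usp18 (474-fold, 161 to 2303), Serpina3f (1169-fold, 209 to 46274), Tm6sf1 (1109-fold, 198 to 43906), Ccl3 (309.8-fold, 105.3 to 1509) and Ifit3 (362-fold, 99.4 to 3003).

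At the other end, the 15 lowest genes were Il17f, Rbpms2, Gpr15, Il17a, Cpd, Pdpn, Il17re, Mgll, Il23r, Atp6v0d2, Col4a2, Cyp1a1, Ccl20, Prss12 and Timp1. Rbpms2, which encodes an RNA-binding protein, read 0.472, 1.00 and 0.222 CPM in Tr1 libraries, against 325, 318 and 341 CPM in Th17 libraries, a log2 fold change of -9.10 ± 0.24 (edgeR, adjusted p = 1.50e-28). Gpr15, a receptor that guides T cells to the colon, read 0, 0.401 and 0.443 CPM in Tr1 libraries, against 145, 133 and 128 CPM in Th17 libraries, a log2 fold change of -8.79 ± 0.31. Pdpn encodes podoplanin, a surface glycoprotein, and Mgll the lipase that breaks down monoacylglycerols. Pdpn read 0.236, 0.401 and 0.222 CPM in Tr1 libraries, against 48.9, 51.9 and 57.9 CPM in Th17 libraries, and Mgll 0.707, 0.801 and 0.443 CPM in Tr1 libraries, against 89.3, 96.7 and 102 CPM in Th17 libraries. Timp1, an inhibitor of matrix metalloproteinases, was at 0 in all 3 Tr1 libraries and read 23.6, 23.4 and 24.6 CPM in Th17 libraries, at least 109-fold lower in Tr1. Few counts in Tr1 underlie these values too. Cpd, Atp6v0d2, Col4a2 and Prss12 fell by 7.96, 7.20, 7.07 and 6.94 log2 units.

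**Figure D2:**
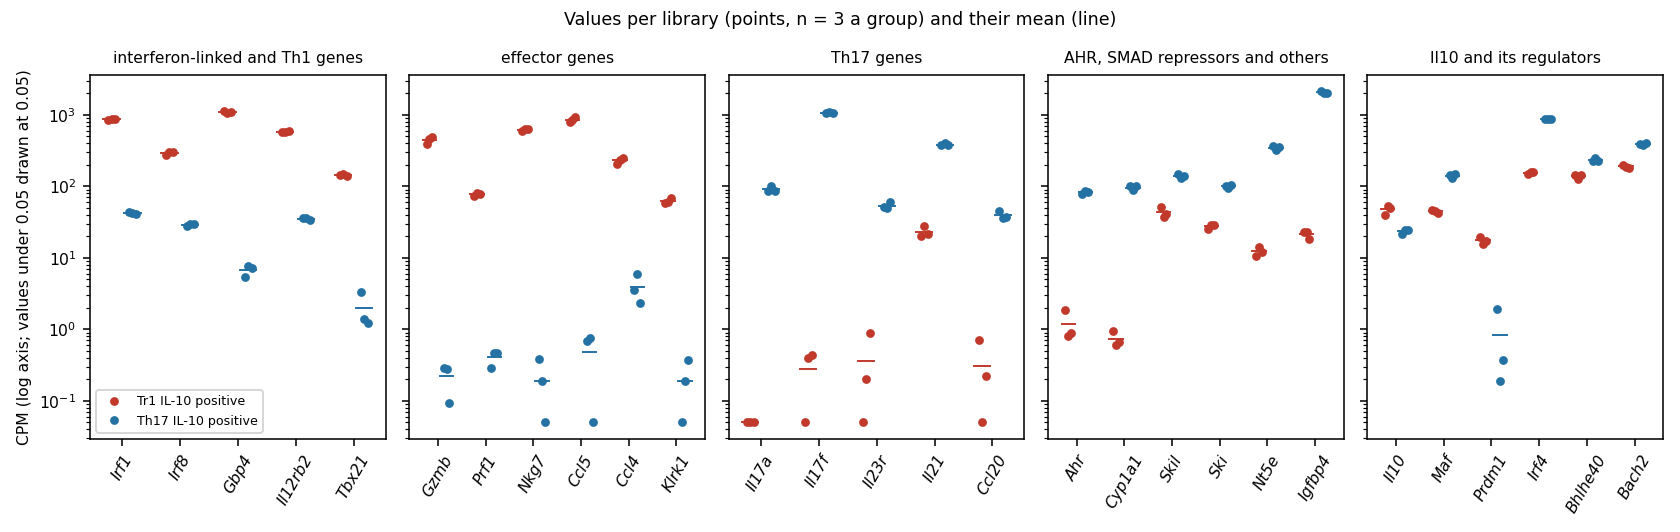
CPM in each library (points, log axis) and the mean of the 3 libraries (line) for 28 genes in 5 groups, with Tr1 IL-10 positive in red left of Th17 IL-10 positive in blue and values under 0.05 drawn at 0.05. The points of the 2 groups do not overlap for any of the 28 genes shown.

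The receptors that read the added cytokines were present in both kinds of cell. Il27ra read 205, 225 and 204 CPM in Tr1 libraries, against 171, 148 and 159 CPM in Th17 libraries, a log2 fold change of 0.41 ± 0.06 (edgeR, adjusted p = 1.03e-06). Il6st, the chain shared by IL-27 and IL-6, read 91.5, 69.3 and 76.2 CPM in Tr1 libraries, against 85.1, 85.2 and 84.0 CPM in Th17 libraries, with overlapping groups and no call (log2 fold change -0.11 ± 0.11, adjusted p = 0.398). Il6ra, the IL-6 specific chain, fell to 35.4, 26.2 and 28.4 CPM in Tr1 libraries, against 59.6, 61.2 and 61.8 CPM in Th17 libraries, a log2 fold change of -1.03 ± 0.12. Of the TGF-beta receptor chains, Tgfbr1 fell by 1.07 log2 units and Tgfbr2 read 221, 225 and 248 CPM in Tr1 libraries, against 206, 199 and 185 CPM in Th17 libraries. The Tgfbr2 difference of 0.24 ± 0.10 on the log2 scale (adjusted p = 0.0374) lost its call without Tr1 replicate 17 or 18, without Th17 replicate 11 or 12, and with no filter on low counts.

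The chains of the interferon gamma receptor moved apart. Ifngr1, the ligand-binding chain, read 1287, 1332 and 1322 CPM in Tr1 libraries, against 162, 159 and 158 CPM in Th17 libraries, a log2 fold change of 3.04 ± 0.06 (edgeR, adjusted p = 8.09e-34). Ifngr2, the chain needed for signalling, read 1.65, 1.60 and 1.33 CPM in Tr1 libraries, against 57.7, 58.3 and 60.1 CPM in Th17 libraries, a log2 fold change of -5.25 ± 0.15 (adjusted p = 2.37e-27). Every Tr1 library was above every Th17 library for Ifngr1 and below every one for Ifngr2. Per length, mean Ifngr1 was 1169 TPM in Tr1 and 160.1 TPM in Th17, and mean Ifngr2 1.39 TPM in Tr1 and 59.8 TPM in Th17. The interferon alpha and beta receptor genes Ifnar1 and Ifnar2 rose by 2.17 and 0.95 log2 units. Of 31 tested cytokine receptor genes, 16 were called higher and 11 lower, with a median log2 fold change of 0.24 against 0.03 over all tested genes. Both chains of the IL-10 receptor were among those that rose: Il10ra read 166, 154 and 169.7 CPM in Tr1 libraries, against 10.2, 10.9 and 10.8 CPM in Th17 libraries, and Il10rb rose by 1.57 log2 units. Il2ra, the high-affinity IL-2 receptor chain, read 61.8, 65.9 and 58.9 CPM in Tr1 libraries, against 440.0, 465 and 413 CPM in Th17 libraries, a log2 fold change of -2.82 ± 0.07. Il12rb2, the inducible IL-12 receptor chain, read 577, 568 and 584 CPM in Tr1 libraries, against 35.9, 36.2 and 33.8 CPM in Th17 libraries, and Il15ra rose by 3.67 log2 units. Il1r1, the IL-1 receptor, fell by 5.81 log2 units, while Il2rg, the common chain, rose by 0.68 log2 units.

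The signal carriers differed by member. Stat3, which IL-27 and IL-6 share, read 354, 376 and 413 CPM in Tr1 libraries, against 385, 388 and 371 CPM in Th17 libraries, with overlapping groups and a difference close to 0 on the log2 scale (0.00 ± 0.07, edgeR, adjusted p = 0.988). Stat2 rose by 1.96 log2 units, Stat4 by 1.64 and the kinase Tyk2 by 1.246, while Stat5a and Stat5b, which act downstream of IL-2, fell by 0.41 and 0.57 log2 units. Over the 23 JAK, STAT and SOCS genes, 9 were called higher and 5 lower, with a median of 0.09. As a set they showed no clear lean beside the 33.3% higher and 31.8% lower over all tested genes. Feedback inhibitors moved in different directions. Socs3, an inhibitor of gp130 signalling, read 220.0, 237 and 232 CPM in Tr1 libraries, against 135, 126 and 133 CPM in Th17 libraries, a log2 fold change of 0.81 ± 0.08. Socs2 read 1.89, 2.60 and 4.43 CPM in Tr1 libraries, against 186, 199 and 195 CPM in Th17 libraries, and Cish 12.02, 12.2 and 9.31 CPM in Tr1 libraries, against 166, 180.1 and 147 CPM in Th17 libraries; both are induced by STAT5, and their log2 fold changes were -6.01 ± 0.14 and -3.87 ± 0.11. Socs1, an inhibitor of interferon signalling, rose by 0.38 log2 units (adjusted p = 0.00771), a call lost with no filter on low counts.

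Interferon-linked genes stood higher in Tr1 nearly without exception. Of the interferon regulatory factors, 7 of 9 tested were called higher and 1 lower, with a median log2 fold change of 1.31. Irf1 read 852, 872 and 868 CPM in Tr1 libraries, against 44.3, 42.8 and 41.4 CPM in Th17 libraries, a log2 fold change of 4.33 ± 0.09 (edgeR, adjusted p = 6.62e-33), and Irf8 270.0, 303 and 299.8 CPM in Tr1 libraries, against 27.9, 29.2 and 30.1 CPM in Th17 libraries. Irf7 and Irf9, which drive and carry the type I interferon response, rose by 3.91 and 1.63 log2 units. Irf4, a factor that T cell receptor signals induce and that Th17 cells need, was the exception, at 147, 156 and 156 CPM in Tr1 libraries, against 877, 871 and 867 CPM in Th17 libraries, a log2 fold change of -2.51 ± 0.08 (adjusted p = 1.09e-26). Of 32 tested interferon-stimulated genes, 31 were called higher, 28 of them by at least 2-fold, and none lower, with a median of 3.43, and the same median with Oas1a at its bound. Oasl2, the gene not called, read 0.943, 0.601 and 0.222 CPM in Tr1 libraries, against 0, 0 and 0.374 CPM in Th17 libraries, with overlapping groups; it was called higher with DESeq2 and without Th17 replicate 12 or Tr1 replicate 18. Oas1a, an antiviral nucleotide synthetase, was at 0 in Th17 libraries and read 2.83, 3.21 and 3.10 CPM in Tr1, at least 32.2-fold higher. The other end of this list held small differences, such as log2 fold changes of 0.77 for Bst2 and 0.86 for Herc6. No interferon was added to either culture. Ifng transcript, which encodes interferon gamma, stood at 10.1, 12.8 and 12.2 CPM in Tr1 libraries and at 0 in all Th17 libraries, at least 124-fold higher.

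The guanylate binding proteins and immunity-related GTPases, enzymes that attack the membranes around intracellular microbes, all rose: 18 of 18 tested members were called higher, 17 by at least 2-fold, with a median log2 fold change of 3.93, and the same median with Gbp10 at its bound. Within the family the difference ran from 0.57 for Gbp5 and 1.12 for Gbp2 to 9.17 for Gbp6 on the log2 scale among members with counts in both. Gbp2 and Gbp4 show the contrast. Gbp2 was high in both, at 2588, 2830.3 and 2719 CPM in Tr1 libraries, against 1325, 1185 and 1244 CPM in Th17 libraries. Gbp4 read 1115, 1057 and 1084 CPM in Tr1 libraries, against 5.34, 7.57 and 7.20 CPM in Th17 libraries, a log2 fold change of 7.33 ± 0.10 (edgeR, adjusted p = 4.26e-38), with every Tr1 library more than 100 times above any Th17 library. Iigp1, a GTPase of the second family, read 459, 470.0 and 499 CPM in Tr1 libraries, against 0.873, 0.654 and 1.31 CPM in Th17 libraries, and Igtp 1385, 1520.4 and 1488 CPM in Tr1 libraries, against 88.8, 93.9 and 82.8 CPM in Th17 libraries. Tgtp1 and Tgtp2, which are near-identical copies, rose by 3.801 and 3.58 log2 units. Gvin1 rose by 3.08 log2 units, with Th17 replicate 10 (59.5, 246 and 272 CPM in Th17 replicates 10, 11 and 12) far below the other 2.

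Factors of the interferon response read short DNA motifs, and the promoters of these genes show where such letters lie. The interferon-stimulated response element (ISRE) was searched as GAAA, any 2 bases and GAAA again, and the gamma-activated site (GAS) as TTC, any 3 bases and GAA, on both strands and with overlapping matches allowed, in the 250 bases upstream of each start in RefSeq's promoters of GRCm38.p6, the assembly that mm10 names. The 6 stretches of 110 bases below are shown because they hold such letters close to the start of genes that rose. Motif letters are in capitals, and each sequence runs 5′ to 3′ on the strand of its gene.
Irf1 (chr11, 1 GAS): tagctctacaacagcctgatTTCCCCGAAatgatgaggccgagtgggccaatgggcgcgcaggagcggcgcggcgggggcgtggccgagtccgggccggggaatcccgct
Isg15 (chr4, overlapping ISRE): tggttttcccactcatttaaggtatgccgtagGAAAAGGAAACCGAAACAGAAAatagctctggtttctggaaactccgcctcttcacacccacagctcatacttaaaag
Gbp2 (chr3, 1 ISRE): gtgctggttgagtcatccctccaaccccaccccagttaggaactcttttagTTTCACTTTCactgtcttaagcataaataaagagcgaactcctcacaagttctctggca
Gbp7 (chr3, 2 GAS and an ISRE): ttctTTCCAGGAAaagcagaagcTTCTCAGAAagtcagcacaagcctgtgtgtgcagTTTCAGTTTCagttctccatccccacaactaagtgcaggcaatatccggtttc
Igtp (chr11, GAS beside ISRE): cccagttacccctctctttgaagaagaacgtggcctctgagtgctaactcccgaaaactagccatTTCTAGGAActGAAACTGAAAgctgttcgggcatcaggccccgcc
Tgtp1 (chr11, GAS beside ISRE): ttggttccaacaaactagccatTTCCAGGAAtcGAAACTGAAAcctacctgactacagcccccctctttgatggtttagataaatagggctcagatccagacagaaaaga
The stretches lie at chr11:53769904-53770013 on the + strand (Irf1), chr4:156200819-156200928 on the − strand (Isg15), chr3:142620553-142620662 on the + strand (Gbp2), chr3:142530226-142530335 on the + strand (Gbp7), chr11:58199446-58199555 on the + strand (Igtp) and chr11:48992247-48992356 on the − strand (Tgtp1). Igtp and Tgtp1 share the arrangement of a GAS followed after 2 bases by an ISRE. Of the guanylate binding protein and immunity-related GTPase list, 10 of 18 genes matched a RefSeq promoter, and 9 of their 11 windows held an ISRE (81.8%) and 6 a GAS (54.5%). Over all 32851 windows the shares were 2.98% and 7.02%. An ISRE was found in 9 of 32 windows of the interferon-stimulated list (28.1%, 26 of 34 genes matched), in 3 of 16 of the MHC class I list (18.8%) and in 0 of 17 of the Th17 list. Among genes called at least 2-fold higher in Tr1 it was in 95 of 1959 windows (4.85%), and among those at least 2-fold lower in 36 of 1630 (2.21%). Over the tested genes the share was 2.7%. A GAS was in 134 of the same 1959 windows (6.84%) and 96 of the 1630 (5.89%), near the 6.01% over the tested genes. The interferon-stimulated list had a GAS in 5 of 32 windows (15.6%). The MHC class I list had it in 1 of 16 (6.25%) and the Th17 list in 1 of 17 (5.88%). A match is only a match of letters, and binding was not measured.

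Genes of antigen presentation by MHC class I, which are known to respond to interferon, also rose. All 16 tested members were called higher, 15 by at least 2-fold, with a median log2 fold change of 2.07. B2m, the light chain, read 3392, 3464 and 3314 CPM in Tr1 libraries, against 784, 692 and 732 CPM in Th17 libraries, and the heavy chain gene H2-K1 2722, 2985 and 2848 CPM in Tr1 libraries, against 489, 493 and 475 CPM in Th17 libraries. Nlrc5, the regulator of class I genes, read 323, 263 and 288 CPM in Tr1 libraries, against 15.3, 20.5 and 20.5 CPM in Th17 libraries, a log2 fold change of 3.95 ± 0.10 (edgeR, adjusted p = 6.20e-30). The peptide transporter gene Tap1 and the immunoproteasome gene Psmb9 rose by 2.59 and 2.90 log2 units. H2-Q7 and H2-T22 rose by 5.42 and 4.44 log2 units, but class I genes have close copies among which reads can be shared. MHC class II genes did not follow: of 7 tested, 2 were called higher (H2-DMa and H2-DMb1) and 3 lower (H2-Ab1, H2-Eb1 and Cd74). A list of 7 with these counts cannot be told from the 33.3% higher and 31.8% lower over all tested genes. H2-DMb1 lost its call without Tr1 replicate 17, and H2-Eb1 without Tr1 replicate 16 or 18. H2-DMa, which helps to load class II molecules, read 71.4, 64.9 and 61.8 CPM in Tr1 libraries, against 20.1, 19.0 and 20.7 CPM in Th17 libraries, and H2-Ab1, a class II chain, 1.89, 2.60 and 2.44 CPM in Tr1 libraries, against 12.9, 14.1 and 12.1 CPM in Th17 libraries. The summed MHC class II level was 69.1 to 78.8 CPM in Tr1 and 39.7 to 42.2 CPM in Th17.

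Nearly all listed Th1 genes were higher in Tr1 than in Th17 cells. The list was not set against the Th1 libraries, in which Cxcr3 was low, as given below. Of 14 tested Th1 genes, 13 were called higher, 12 by at least 2-fold, and 1 lower, with a median log2 fold change of 3.76, and the same median with Ifng at its bound. Tbx21, which encodes the Th1 regulator T-bet, read 144, 148 and 138 CPM in Tr1 libraries, against 3.30, 1.40 and 1.22 CPM in Th17 libraries, a log2 fold change of 6.18 ± 0.19 (edgeR, adjusted p = 1.61e-26). Hlx, a partner of T-bet, read 11.3, 10.02 and 9.97 CPM in Tr1 libraries, against 0, 0.0934 and 0 CPM in Th17 libraries; with 1 count in Th17 the ratio was 329.8-fold, with an interval of 58.3 to 13116. Cxcr3, a chemokine receptor that T-bet induces, read 38.4, 41.7 and 43.0 CPM in Tr1 libraries, against 1.84, 1.96 and 2.43 CPM in Th17 libraries. Runx3, which works with T-bet, rose by 1.38 log2 units. Il18r1, the binding chain of the IL-18 receptor, was the one Th1 gene called lower (log2 fold change -0.39), while its partner Il18rap rose by 2.59 log2 units. Eomes was below 1 CPM in every library, and its call was lost without Tr1 replicate 16 or 18 and without Th17 replicate 11 or 12.

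Most genes of the Th17 programme were near 0 in Tr1 cells. Of 14 tested Th17 genes, 13 were called lower, 12 by at least 2-fold, and none higher, with a median log2 fold change of -6.06, and the same median with Il17a at its bound. Il17a, on chromosome 1, from 20730905 to 20734496, was at 0 in all 3 Tr1 libraries and read 85.7, 102 and 85.3 CPM in Th17, at least 417-fold lower in Tr1. Il17f, its neighbour on the same chromosome, read 0, 0.401 and 0.443 CPM in Tr1 libraries, against 1069, 1098 and 1042 CPM in Th17 libraries, a log2 fold change of -11.77 ± 0.20 (edgeR, adjusted p = 3.35e-32). Rora, a nuclear receptor of the programme, read 3.30, 2.40 and 3.10 CPM in Tr1 libraries, against 78.3, 81.3 and 76.5 CPM in Th17 libraries. Il23r, the receptor chain for IL-23, read 0, 0.200 and 0.886 CPM in Tr1 libraries, against 50.7, 49.6 and 59.5 CPM in Th17 libraries, and Ccl20, a chemokine that draws cells bearing CCR6, 0.707, 0 and 0.222 CPM in Tr1 libraries, against 45.8, 36.3 and 37.0 CPM in Th17 libraries. Il17re, a receptor chain for IL-17C, read 0.472, 0 and 0.222 CPM in Tr1 libraries, against 42.3, 36.9 and 33.5 CPM in Th17 libraries; from 3 counts in Tr1 it was 172-fold lower, with an interval of 58.7 to 834. Batf, a factor needed for Th17 and for Tr1 cells, differed least among those called (log2 fold change -0.67 ± 0.10), and Ccr6 fell from a low level, with 0, 0.401 and 0.443 CPM in Tr1 libraries, against 3.78, 4.39 and 3.74 CPM in Th17 libraries. Il22 was at or below 0.222 CPM in every library and was not called, so a difference was not detectable at this depth.

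Beyond IL-17, Il21 and Lif fell and Ifng rose among the cytokine genes. Of 19 tested, 10 were called, a share below the 65.1% over all tested genes: 2 higher, Ifng and Il16, of which Il16 lost its call with no filter on low counts, and 8 lower, which, beside Il17a and Il17f, were Lif, Il2, Il21, Ebi3, Tgfb1 and Osm. The list's median was -1.05, or -0.34 with genes absent from a group at their bound. Il21, which both IL-6 and IL-27 are known to induce, read 20.0, 28.0 and 21.3 CPM in Tr1 libraries, against 372, 397 and 375 CPM in Th17 libraries, a log2 fold change of -4.03 ± 0.10 (edgeR, adjusted p = 3.23e-29). Lif, another gp130 cytokine, read 4.01, 5.61 and 5.10 CPM in Tr1 libraries, against 141, 140.01 and 132 CPM in Th17 libraries, a log2 fold change of -4.80 ± 0.16. Il2 read 0.236, 0.401 and 0.222 CPM in Tr1 libraries, against 6.11, 3.27 and 7.48 CPM in Th17 libraries, a low level in both. Il4, Il5 and Il13, the Th2 cytokines, were at 0 in every Tr1 library and at or below 0.194 CPM in every Th17 library. Gata3, the Th2 regulator, read 53.1, 60.7 and 51.8 CPM in Tr1 libraries, against 50.9, 49.9 and 55.6 CPM in Th17 libraries, with overlapping groups (0.08 ± 0.09, adjusted p = 0.436). Of 10 tested Th2 genes 1 was called higher and 4 lower, a share below that over all tested genes, with a median of -1.07, or 0 with absent genes at their bound; those that fell were the receptors Ccr4 (0.236, 1.80 and 0.443 CPM in Tr1 libraries, against 89.7, 84.6 and 82.6 CPM in Th17 libraries), Ccr8 and Il4ra and the factor Maf. The higher one, Il1rl1, which encodes the IL-33 receptor, read 1.41, 0.200 and 1.99 CPM in Tr1 libraries, against 0.485, 0.467 and 0.281 CPM in Th17 libraries, with overlapping groups. Its adjusted p was 0.0495, and the call was lost after thinning and without Tr1 replicate 16 or 18 or any 1 Th17 replicate. Of 12 tested TNF family ligands 5 were higher and 4 lower, near the shares of 33.3% and 31.8% over all tested genes. Ltb read 661, 707 and 668 CPM in Tr1 libraries, against 245, 241 and 219 CPM in Th17 libraries. Fasl rose by 5.58 log2 units, Tnfsf8 by 1.98 and Tnfsf10 by 1.56, while Lta fell by 2.80 log2 units.

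Genes linked to TGF-beta, which only the Th17 cultures received, did not move as a block. Of 24 tested pathway genes 6 were called higher and 9 lower, near the shares of 33.3% and 31.8% over all tested genes. Their median log2 fold change was -0.09, and with no filter on low counts 2 were called higher. Smad2 and Smad3, which carry the TGF-beta signal, fell, Smad2 with 43.4, 43.3 and 46.1 CPM in Tr1 libraries, against 102, 100.5 and 99.8 CPM in Th17 libraries, and Smad3 with 34.2, 36.3 and 37.7 CPM in Tr1 libraries, against 73.7, 86.9 and 73.9 CPM in Th17 libraries. Of 15 tested genes known to be induced by TGF-beta, 8 were called lower and 2 higher (Smad7 and Junb), with a median of -0.67. With no filter neither of these 2 was called and Junb turned to -0.012, and Junb also lost its call without Tr1 replicate 17 or 18 or any 1 Th17 replicate. Skil and Ski are repressors of SMAD signalling, and the pathway itself induces Skil. Skil read 51.6, 37.5 and 41.4 CPM in Tr1 libraries, against 151, 132 and 141 CPM in Th17 libraries. Ski read 25.5, 28.6 and 28.8 CPM in Tr1 libraries, against 102, 93.6 and 104 CPM in Th17 libraries. Their log2 fold changes were -1.70 ± 0.11 (Skil) and -1.85 ± 0.11 (Ski) (edgeR, adjusted p = 1.63e-16 and 6.06e-18). Smad7, the inhibitory SMAD, went the other way, at 20.5, 20.8 and 17.7 CPM in Tr1 libraries, against 14.9, 13.5 and 15.5 CPM in Th17 libraries, a log2 fold change of 0.43 ± 0.14 (adjusted p = 0.00665), a call lost with no filter (0.28, adjusted p = 0.163). Tgfb1, which encodes the cytokine itself, fell by 1.37 log2 units, and Lrrc32, which holds its latent form on the cell surface, by 3.43. Cdkn1a, a cell cycle inhibitor, fell by 2.76 log2 units and Ldlrad4, an inhibitor of the pathway, by 1.69. Itgae, an integrin chain that TGF-beta induces in CD8 T cells, was at or below 1.16 CPM in every library and was not called.

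The aryl hydrocarbon receptor, a ligand-activated factor that promotes Th17 cells and has also been tied to Tr1 cells, was higher in Th17. Ahr read 1.89, 0.801 and 0.886 CPM in Tr1 libraries, against 78.2, 86.1 and 82.3 CPM in Th17 libraries, a log2 fold change of -6.12 ± 0.29 (edgeR, adjusted p = 1.03e-20). Of 7 tested genes of the receptor and its targets, 6 were called lower and none higher, with a median of -3.10. Cyp1a1, the classic target, read 0.943, 0.601 and 0.665 CPM in Tr1 libraries, against 100.4, 87.8 and 99.6 CPM in Th17 libraries, and Cyp1b1 0.707, 0.401 and 1.99 CPM in Tr1 libraries, against 55.0, 40.8 and 44.99 CPM in Th17 libraries. Ahrr, the receptor's repressor, fell by 3.10 log2 units and Tiparp by 1.497. All 3 Tr1 libraries were below all 3 Th17 libraries for each of these 5 genes.

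Il10 itself, on chromosome 1, from 131019845 to 131024970 of GRCm38.p6, was higher in Tr1. It read 39.4, 53.5 and 49.2 CPM in Tr1 libraries, against 21.5, 24.1 and 24.8 CPM in Th17 libraries, a log2 fold change of 1.02 ± 0.13 (edgeR, adjusted p = 1.39e-08), with groups that do not overlap. Thy1, a T cell surface gene of which the reporter uses an allele, read 239.6, 249 and 291 CPM in Tr1 libraries, against 158, 157 and 150.1 CPM in Th17 libraries. Of 20 tested genes known to regulate Il10, 6 were called higher and 9 lower, with a median log2 fold change of -0.07. Over all tested genes 33.3% were called higher and 31.8% lower, with a median of 0.03. The list as a set thus showed no clear lean, and the members below are single genes. The higher ones included Prdm1, which encodes Blimp-1, at 19.8, 15.4 and 17.3 CPM in Tr1 libraries, against 1.94, 0.187 and 0.374 CPM in Th17 libraries, a log2 fold change of 4.38 ± 0.31, and Tbx21. Maf, an activator of Il10, read 46.4, 45.1 and 42.3 CPM in Tr1 libraries, against 144, 132 and 146 CPM in Th17 libraries, a log2 fold change of -1.66 ± 0.11 (adjusted p = 3.06e-16). Bhlhe40 and Bach2, which restrain Il10 or effector differentiation, read 142, 125 and 144 CPM in Tr1 libraries, against 227, 246 and 226 CPM in Th17 libraries, for Bhlhe40, and 199.9, 186 and 183 CPM in Tr1 libraries, against 394, 377 and 402 CPM in Th17 libraries, for Bach2. Ahr, Irf4 and Batf were lower too. Egr2, which IL-27 is known to induce upstream of Blimp-1, read 36.1, 38.9 and 37.7 CPM in Tr1 libraries, against 37.9, 38.9 and 37.1 CPM in Th17 libraries, with overlapping groups and no call (log2 fold change -0.02 ± 0.10, adjusted p = 0.901). Nfil3 was not called either (log2 fold change -0.13 ± 0.17).

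Most chemokine genes that were called rose in Tr1. Of 9 tested chemokines 6 were called higher and 1 lower, with a median log2 fold change of 2.49, or 2.44 with absent genes at their bound. Ccl5, which draws effector T cells, read 790.1, 855 and 925 CPM in Tr1 libraries, against 0.679, 0.747 and 0 CPM in Th17 libraries, a log2 fold change of 10.77 ± 0.21 (edgeR, adjusted p = 2.45e-33), and Ccl4 202, 235 and 251 CPM in Tr1 libraries, against 3.49, 5.98 and 2.34 CPM in Th17 libraries. Ccl20 was the one chemokine called lower. Of 17 tested chemokine and egress receptors 9 were higher and 5 lower, with a median of 0.71. Beside Ccr4, Ccr8 and Ccr6, those that fell were Ccr1 and Cxcr4, with log2 fold changes of -3.85 and -2.78. Cxcr6 rose by 0.71 log2 units, Cxcr5 by 1.36 and S1pr1, the receptor for exit from lymphoid tissue, by 0.85. Ccr7, the lymph node homing receptor, was not called (log2 fold change 0.07 ± 0.06).

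Gzmb, Prf1, Gzma and Nkg7, genes of cytotoxic granules, were high in Tr1 and below 1 CPM in Th17, while other genes of the cytotoxic list were present in both. Of 14 tested members, 9 were called higher, 8 by at least 2-fold, and 1 lower, with a median log2 fold change of 3.33. Gzmb, the protease granzyme B, read 388, 458 and 484 CPM in Tr1 libraries, against 0.291, 0.280 and 0.0935 CPM in Th17 libraries, a log2 fold change of 10.87 ± 0.22 (edgeR, adjusted p = 2.40e-32). Prf1, the pore protein perforin, read 74.0, 80.3 and 78.9 CPM in Tr1 libraries, against 0.291, 0.467 and 0.468 CPM in Th17 libraries, a log2 fold change of 7.51 ± 0.18 (adjusted p = 5.75e-30). Gzma read 51.9, 50.3 and 67.8 CPM in Tr1 libraries, against 0.194, 0.187 and 0.561 CPM in Th17 libraries, and Nkg7, a granule membrane protein, 592, 629.8 and 639 CPM in Tr1 libraries, against 0.388, 0.187 and 0 CPM in Th17 libraries. Serpinb9 and Serpinb6b, inhibitors of granule proteases, rose by 4.399 and 4.81 log2 units. Srgn, the proteoglycan that packs granules, was the one member called lower, at 732, 787 and 792 CPM in Tr1 libraries, against 936, 908 and 885 CPM in Th17 libraries. The whole list summed to 2272 to 2561 CPM in Tr1 and 1148 to 1181 CPM in Th17, and Srgn gave the largest part of the Th17 sum. Markers of other cytotoxic cells moved with this group. NK genes summed to 102 to 121 CPM in Tr1 and 11.5 to 15.5 CPM in Th17, mostly from Klrk1 (58.5, 59.7 and 67.6 CPM in Tr1 libraries, against 0, 0.187 and 0.374 CPM in Th17 libraries) and Klrd1 (42.4, 41.9 and 52.3 CPM in Tr1 libraries, against 8.54, 10.2 and 13.3 CPM in Th17 libraries), with 2 of 3 tested members higher and 1, Klre1, lower and at 0 in Tr1, while Klra4 was at 0 throughout. The CD8 genes Cd8a and Cd8b1 summed to 42.7 to 51.4 CPM in Tr1 and 6.27 to 9.80 CPM in Th17, both called higher, with Cd8a at 9.20, 11.2 and 15.95 CPM in Tr1 libraries, against 1.65, 1.59 and 1.03 CPM in Th17 libraries. Cd8b1 thus made up most of the sum in both. The sort took CD4 positive cells, but whether other cytotoxic cells had a part in these values was not tested.

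Inhibitory receptors did not rise together in Tr1. Of 19 tested co-inhibitory receptors and ectoenzymes, 8 were called higher and 10 lower, with a median log2 fold change of -0.28. Lag3, often used to mark Tr1 cells, was high in both, at 1042, 1156 and 1171 CPM in Tr1 libraries, against 847, 796 and 791 CPM in Th17 libraries, a log2 fold change of 0.47 ± 0.06 (edgeR, adjusted p = 1.85e-08). Tigit read 104.9, 118 and 120.1 CPM in Tr1 libraries, against 12.7, 14.4 and 10.8 CPM in Th17 libraries, a log2 fold change of 3.18 ± 0.11, and Cd274, which encodes PD-L1, 82.1, 97.8 and 87.3 CPM in Tr1 libraries, against 4.85, 4.02 and 5.80 CPM in Th17 libraries. Havcr2, which encodes TIM-3, read 5.42, 5.21 and 5.32 CPM in Tr1 libraries, against 0.0970, 0 and 0.187 CPM in Th17 libraries, a ratio of 56.1-fold with an interval of 18.5 to 278. Pdcd1, which encodes PD-1, went down, at 11.6, 20.0 and 16.4 CPM in Tr1 libraries, against 61.3, 62.5 and 55.6 CPM in Th17 libraries, as did Ctla4 to a small extent (log2 fold change -0.34). Cd200 read 42.9, 42.9 and 43.9 CPM in Tr1 libraries, against 219, 214 and 207 CPM in Th17 libraries. The enzymes that turn extracellular ATP into adenosine split between the cells. Entpd1, which encodes CD39 and makes AMP, read 32.5, 34.9 and 38.3 CPM in Tr1 libraries, against 8.73, 6.44 and 6.92 CPM in Th17 libraries, a log2 fold change of 2.26 ± 0.15 (adjusted p = 3.85e-16). Nt5e, which encodes CD73 and turns AMP into adenosine, read 10.6, 14.2 and 11.97 CPM in Tr1 libraries, against 362, 323 and 352 CPM in Th17 libraries, a log2 fold change of -4.80 ± 0.15 (adjusted p = 1.54e-26). Every Tr1 library was above every Th17 library for Entpd1 and below every one for Nt5e.

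Costimulatory receptors were mixed too, with 5 of 17 higher and 8 lower and a median of 0.05. Cd27 read 590.4, 596 and 619 CPM in Tr1 libraries, against 145, 124 and 132 CPM in Th17 libraries, and Tnfrsf9 rose by 1.27 log2 units, while Tnfrsf25 fell to 17.2, 23.4 and 22.6 CPM in Tr1 libraries, against 119, 117 and 123 CPM in Th17 libraries, and Tnfrsf8, which encodes CD30, was 87.6-fold lower (interval 15.5 to 3476). Of 10 tested regulatory T cell genes 4 were higher and 4 lower, near the shares over all tested genes. Ikzf2, which encodes Helios, read 16.98, 22.4 and 18.2 CPM in Tr1 libraries, against 0.485, 0.280 and 0.842 CPM in Th17 libraries. Folr4, named after the folate receptor family, read 157, 177 and 175 CPM in Tr1 libraries, against 30.3, 25.6 and 29.6 CPM in Th17 libraries. Nrp1 read 34.0, 37.9 and 29.2 CPM in Tr1 libraries, against 9.51, 8.59 and 10.1 CPM in Th17 libraries. Foxp3 was not called (log2 fold change 0.63 ± 0.55, adjusted p = 0.316). In the follicular helper list 3 of 10 were higher and 6 lower, with a median of -1.49: Bcl6, the regulator, rose by 0.76 log2 units, while Pou2af1, Tox2 and Cd200 fell by 2.39, 3.98 and 2.30 log2 units.

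Genes of naive and memory-like cells were more often higher than lower in Tr1. Of 22 tested, 12 were called higher, 9 by at least 2-fold, and 7 lower, with a median log2 fold change of 0.41. Ly6c1, a surface protein gene of the Ly6C family, read 1076, 1127 and 1119.8 CPM in Tr1 libraries, against 23.1, 17.8 and 18.6 CPM in Th17 libraries. Ly6c1 and Ly6c2 are close copies, so reads may be shared between them. Igfbp4, an insulin-like growth factor binding protein of naive T cells, was the largest exception, at 22.6, 22.8 and 18.4 CPM in Tr1 libraries, against 2129.8, 2036 and 2038 CPM in Th17 libraries, a log2 fold change of -6.60 ± 0.11 (edgeR, adjusted p = 5.62e-35). Tcf7, Satb1 and Bach2 fell by 0.53, 0.96 and 1.04 log2 units, while Foxp1, Klf2 and Lef1 rose by 1.55, 1.06 and 0.49 log2 units. Activation-induced factors also leaned to Tr1, with 13 of 21 higher and 4 lower and a median of 0.75. Jun read 239, 253 and 236 CPM in Tr1 libraries, against 86.9, 92.8 and 98.4 CPM in Th17 libraries, and Dusp2 and Rel rose by 2.00 and 1.35 log2 units; the 4 that fell were Irf4, Fosl2, Batf and Myc. In the T cell receptor complex 10 of 13 were higher and 1, Zap70, lower (3 lower with no filter on low counts), with Ptprc, which encodes CD45, at 4196, 3470.1 and 3857 CPM in Tr1 libraries, against 1423, 1259 and 1340.2 CPM in Th17 libraries. Among 15 tested integrins 7 were higher and 3 lower. Itgb7, a chain for homing to the gut, read 1225, 1459 and 1502 CPM in Tr1 libraries, against 426, 483 and 399.8 CPM in Th17 libraries, Itgam rose by 3.79 log2 units, and Itga3 and Itga5 fell by 2.82 and 2.28 log2 units.

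Genes of proliferation were lower in Tr1. All 26 tested cell cycle genes were called lower, 25 by at least 2-fold, with a median log2 fold change of -1.85. Mki67, which encodes Ki-67, read 90.5, 70.3 and 92.4 CPM in Tr1 libraries, against 293, 289 and 297 CPM in Th17 libraries, and Top2a, the topoisomerase of dividing cells, 187, 138 and 175 CPM in Tr1 libraries, against 769.8, 694 and 675 CPM in Th17 libraries. Of 26 DNA replication genes 25 were called lower, 23 by at least 2-fold, with a median of -2.35. Mcm3, a subunit of the replicative helicase, read 92.2, 87.1 and 78.7 CPM in Tr1 libraries, against 655, 653 and 599 CPM in Th17 libraries, a log2 fold change of -2.89 ± 0.09 (edgeR, adjusted p = 7.39e-27), and Lig1, the ligase that joins new strands, 20.7, 17.4 and 21.0 CPM in Tr1 libraries, against 159, 160.1 and 149 CPM in Th17 libraries. Tyms, the thymidylate synthase gene, was the member not called (log2 fold change 0.19 ± 0.15, adjusted p = 0.285); with only the compared libraries in the fit it was called higher (0.20, adjusted p = 0.0216).

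Genes of sugar breakdown were lower in Tr1 as well. Of 17 tested glycolysis genes 16 were called lower, 11 by at least 2-fold, with a median log2 fold change of -1.39. Tpi1, triose phosphate isomerase, read 224, 229 and 228 CPM in Tr1 libraries, against 1425, 1479 and 1377 CPM in Th17 libraries, a log2 fold change of -2.65 ± 0.08 (edgeR, adjusted p = 1.18e-27). Hk2, the inducible hexokinase, read 4.48, 3.005 and 2.22 CPM in Tr1 libraries, against 41.6, 43.1 and 38.0 CPM in Th17 libraries, and Pfkl, phosphofructokinase, 72.1, 70.7 and 70.9 CPM in Tr1 libraries, against 391, 415 and 391.7 CPM in Th17 libraries. Slc16a3, the lactate exporter, fell by 2.32 log2 units. Slc2a3, a glucose transporter, was the one gene called higher, at 81.8, 58.1 and 74.0 CPM in Tr1 libraries, against 26.9, 27.6 and 21.8 CPM in Th17 libraries, while the transporter gene Slc2a1 fell by 1.62 log2 units. Hypoxia response genes were lower or not called, 8 of 13 lower, with log2 fold changes of -2.66 for Bnip3 and -2.50 for Egln3. Cholesterol synthesis had 15 of 21 lower and 1 higher (median -0.82), with log2 fold changes of -1.41 for Sqle and -1.34 for Cyp51. Oxidative phosphorylation had 17 of 27 lower and 3 higher, but none by 2-fold (median -0.29).

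Genes that build ribosomes and those of the ribosome itself differed. All 22 tested ribosome biogenesis genes were called lower, 13 by at least 2-fold, with a median of -1.15; Gnl3 and Mybbp1a fell by 1.85 and 1.61 log2 units. The cytosolic ribosomal proteins themselves did not fall: 16 of 28 were called higher and 2 lower, none by 2-fold, with a median of 0.17. With no filter on low counts 10 were higher and 5 lower, and the division of reads with ribosomal pseudogenes is uncertain. Endoplasmic reticulum genes had 12 of 18 lower and 3 higher (median -0.90), with Xbp1, a regulator of secretory capacity, at 57.5, 65.9 and 74.9 CPM in Tr1 libraries, against 258, 289 and 255 CPM in Th17 libraries, and Edem1 higher by 1.52 log2 units. Of 18 amino acid response genes 10 were lower and 2 higher, with log2 fold changes of -2.12 for Shmt2 and -1.88 for Psat1. Of 11 metallothionein and zinc transporter genes 4 were lower and 2 higher, with Mt1 at 7.07, 10.6 and 12.4 CPM in Tr1 libraries, against 21.4, 21.5 and 21.7 CPM in Th17 libraries. In bulk libraries a smaller share of dividing cells and less transcript per cell cannot be told apart.

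**Figure D3:**
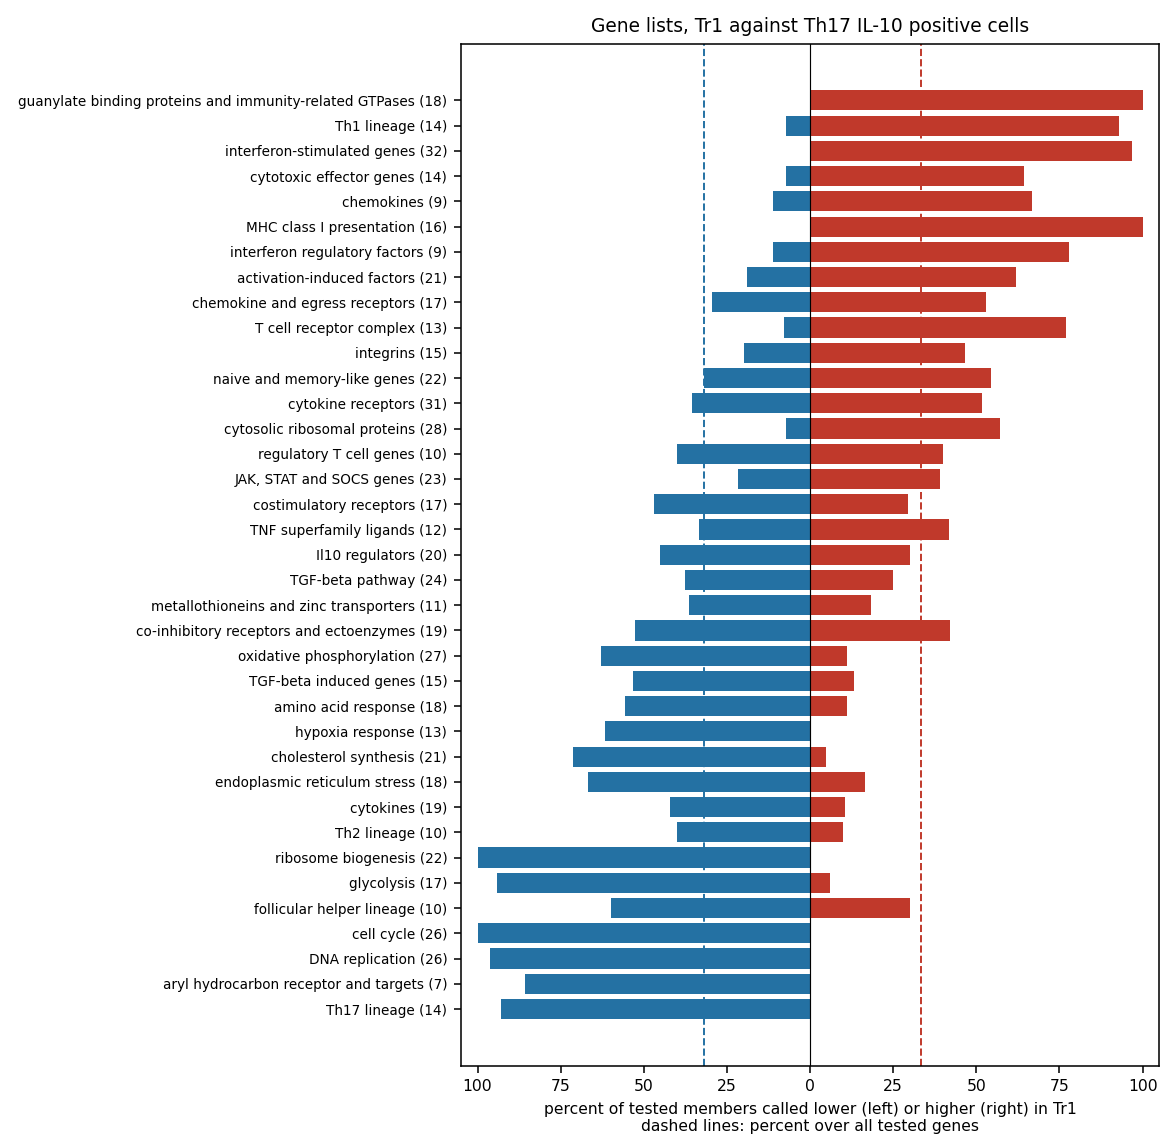
Percent of the tested members (number in parentheses) of each gene list with 7 or more tested members, markers of other cells left out, called higher (red, to the right) or lower (blue, to the left) in Tr1 against Th17 IL-10 positive cells, ordered by median log2 fold change from top to bottom. Dashed lines mark 33.3% and 31.8%, the shares over all 12611 tested genes. Interferon-linked, Th1, cytotoxic, chemokine and MHC class I lists lie at the top and Th17, aryl hydrocarbon receptor and proliferation lists at the bottom.

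The same comparison was made between Tr1 and Th17 cells in the IL-10 negative compartment. There 4967 genes were called (39.4%), 2269 higher (18%) and 2698 lower (21.4%), of which 720 (5.71%) and 909 (7.21%) by at least 2-fold, with groups that do not overlap for 5702 genes (45.2%) and a median log2 fold change of -0.04. Of the 3917 genes called at least 2-fold in IL-10 positive cells, 1196 were also called at least 2-fold in the same direction in negative cells (30.5%), which is 73.4% of the 1629 such genes in negative cells. Another 35 were called at least 2-fold in opposite directions. Th17 and interferon-linked genes stood apart in both compartments. Il17f was at 0 in every Tr1 IL-10 negative library and read 104, 92.6 and 97.8 CPM in Th17 IL-10 negative libraries. Nt5e differed by -4.82 ± 0.15 on the log2 scale in negative cells, beside -4.80 ± 0.15 in positive cells. The guanylate binding protein list had a median of 3.61 in negative cells, beside 3.93 in positive cells, and the interferon-stimulated list 1.55, beside 3.43. In negative cells 25 of 26 cell cycle genes were lower as well, with a median of -2.30.

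The difference of differences, the IL-10 positive log2 fold change minus the IL-10 negative one, tested which gaps differ between compartments. It was called for 4863 genes (38.6%), 2652 higher (21.0%) and 2211 lower (17.5%), of which 1330 (10.5%) and 720 (5.71%) by at least 2-fold. Il10, on whose reporter the compartments were sorted, was among them, at 2.67 ± 0.59 (edgeR, adjusted p = 4.02e-04): in negative cells it was lower in Tr1, at 0, 0.568 and 0.854 CPM in Tr1 IL-10 negative libraries, against 0.983, 0.760 and 3.25 CPM in Th17 IL-10 negative libraries, with overlapping groups. Prf1 and Gzmb had some of the largest positive differences. Prf1 read 18.1, 22.1 and 23.05 CPM in Tr1 IL-10 negative libraries, against 11.5, 11.7 and 10.8 CPM in Th17 IL-10 negative libraries, so that its gap was 0.91 ± 0.13 there, beside 7.51 ± 0.18 in positive cells, a difference of 6.61 ± 0.26 (adjusted p = 9.39e-22). Gzmb read 2.44, 1.33 and 2.99 CPM in Tr1 IL-10 negative libraries, against 0.328, 0 and 0 CPM in Th17 IL-10 negative libraries; its difference of 6.59 ± 2.24 (adjusted p = 0.018) lost its call without Th17 IL-10 negative replicate 10 and after thinning. Serpinb5 and Ggt1 turned round: Serpinb5 read 1.62, 2.27 and 1.99 CPM in Tr1 IL-10 negative libraries, against 25.6, 32.1 and 20.1 CPM in Th17 IL-10 negative libraries, the opposite of its order in positive cells (41.3, 43.5 and 37.7 CPM in Tr1 libraries, against 2.81, 4.48 and 4.396 CPM in Th17 libraries). Ggt1, a glutathione-metabolising enzyme, had a log2 fold change of 4.27 ± 0.16 in positive cells and -1.99 ± 0.14 in negative cells. Among the 53 genes of a set of regulators, receptors and cytokines, 7 were called in opposite directions in the 2 compartments: Il10, Il27ra, Socs3, Lag3, Smad7, Tgfbr2 and Cxcr6, all higher in Tr1 among positive cells and lower in Tr1 among negative cells. Over all tested genes, 366 (2.90%) were called in opposite directions, 217 (1.72%) in this order. Of the 7, Tgfbr2 and Smad7 lost their positive-cell calls under at least 1 alternative. Il10 had few counts in negative cells. Glycolysis genes had a larger gap in positive cells, with a median of -1.39, beside -0.55 in negative cells, and 15 of 17 differences called lower.

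**Figure D4:**
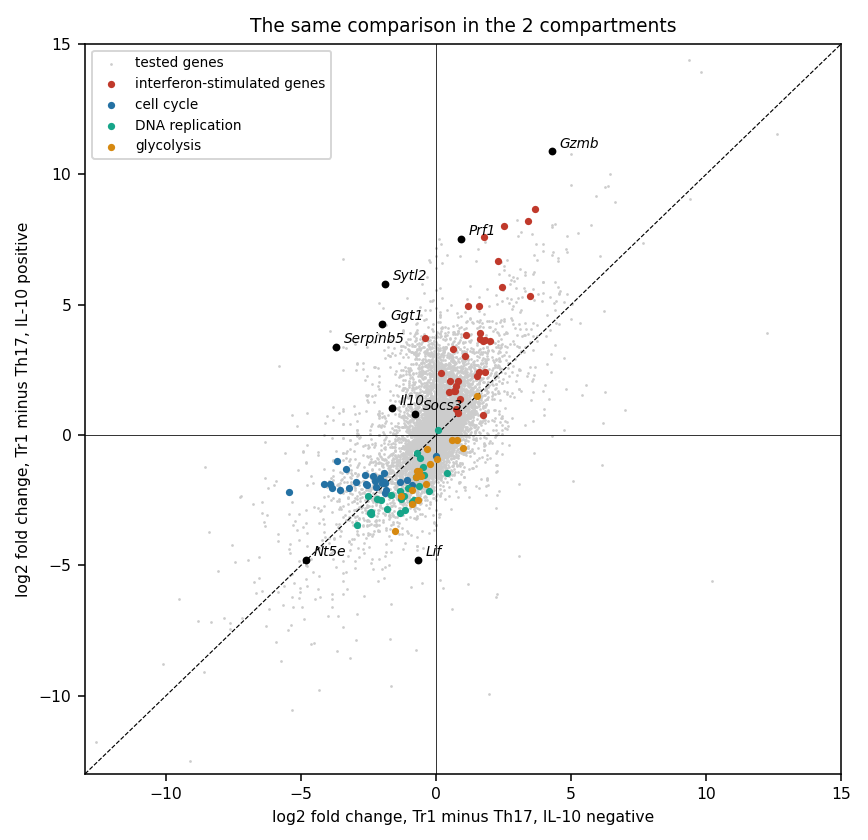
Log2 fold change, Tr1 minus Th17, in IL-10 positive cells (vertical axis) against IL-10 negative cells (horizontal axis) for the tested genes, with 4 gene lists coloured, 9 genes named and the line of equal change dashed. Nt5e lies on the line, Prf1 and Gzmb far above it, and Il10, Socs3, Ggt1, Serpinb5 and Sytl2 in the quadrant where the direction turns.

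The other IL-10 positive groups place the levels of both kinds of cell. These groups share the Tr1 or Th17 libraries, so the values are given side by side. Il10 averaged 47.4 ± 7.23 CPM in Tr1 and 23.5 ± 1.71 CPM in Th17 (SD, n = 3 each), beside 51.6 in pTh17, 380.5 in Th1 and 815 in Th2. Tr1 and pTh17 did not differ beyond their spread (log2 fold change -0.12 ± 0.12, edgeR, adjusted p = 0.416). Irf1 was highest in Tr1: it averaged 864 CPM in Tr1 and 42.8 CPM in Th17, beside 508 in Th1, 241 in Th2 and 176 in pTh17, and exceeded Th1 by 0.77 ± 0.07 (adjusted p = 1.70e-11). Ccl5 was likewise highest in Tr1, at 857 CPM, with 0.476 in Th17 and 80.9 in Th1. Gzmb was lower in Th17 than in each other group: 443 CPM in Tr1 and 0.222 CPM in Th17 stood beside 1383 in pTh17, 1078 in Th1 and 443 in Th2. Cxcr3 was high in Tr1, pTh17 and Th2, at 41.0, 24.4 and 36.7 CPM, and low in Th17 and Th1, at 2.08 and 2.57 CPM.

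Il17f was high in both Th17 and pTh17 cells, while several other genes high in Th17 were low in pTh17. The pTh17 cultures received IL-1b and IL-23 but no TGF-beta, so that they differ from Th17 in 3 cytokines, whose parts cannot be told apart. Il17f averaged 1069.7 CPM in Th17 and 937 in pTh17. Ahr, Cyp1a1, Rbpms2, Gpr15 and Nt5e were higher in Th17 than in each of the other 4 groups. Ahr averaged 82.2 CPM in Th17 and 5.03 in pTh17, a log2 fold change of 4.03 ± 0.21 (edgeR, adjusted p = 2.69e-19), and Rbpms2 328 in Th17 and 1.49 in pTh17, a log2 fold change of 7.75 ± 0.20. Nt5e averaged 345 CPM in Th17 and 3.25 in pTh17, and Gpr15 135 in Th17 and 0.640 in pTh17. Hk2 and Tpi1 were instead lower in Tr1 than in each other group. Hk2 averaged 3.23 CPM in Tr1 and 40.9 in Th17, beside 77.7 in pTh17, 70.3 in Th1 and 52.7 in Th2. Tpi1 averaged 227 CPM in Tr1 and 1427 in Th17, beside 1536 in pTh17, 1309.6 in Th1 and 2193 in Th2. Mki67 averaged 84.4 CPM in Tr1 and 293 in Th17, beside 253 in pTh17, 113 in Th1 and 405 in Th2.

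**Figure D5:**
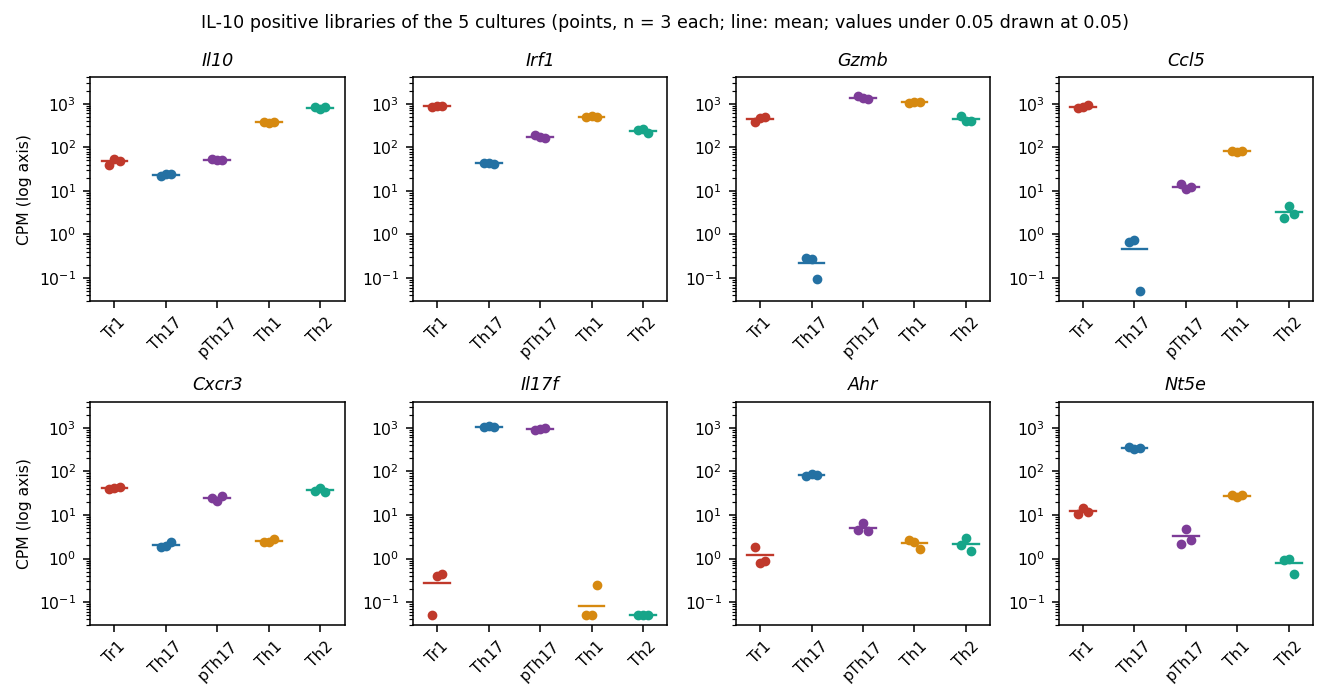
CPM on a log axis of 8 genes in the IL-10 positive libraries of Tr1, Th17, pTh17, Th1 and Th2 cultures (points, n = 3 each; line: mean; values under 0.05 drawn at 0.05). Irf1 and Ccl5 are highest in Tr1, Gzmb is lowest in Th17, Il17f is high in Th17 and pTh17, and Ahr and Nt5e are highest in Th17.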

How the data were processed

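RNA was measured by sequencing in 30 libraries, 3 for each of 10 groups, of which 6 make up the comparison. The authors deposited 1 table per library with expected counts and TPM for each gene, made with RSEM on the mm10 build per the submitters' processing notes (aligner and versions: not given in the sources used here). TPM in the deposited tables is scaled for gene length and was used only to set levels of 2 genes side by side. RSEM divides reads between similar genes by estimate, and reads carry no molecular identifiers or strand, so copies and overlapping genes are uncertain. Groups were taken from the titles, since the sorting text of the labels names the Thy1.1 positive gate for both compartments.

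The expected counts, as deposited, were rounded to whole numbers. In R 4.3.3, edgeR 4.0.16 kept 12611 of 23420 genes (filterByExpr), scaled with TMM and fitted 1 mean per group over all 30 libraries (quasi-likelihood). Contrasts were Tr1 minus Th17 in IL-10 positive cells, the same in IL-10 negative cells, their difference, and Tr1 or Th17 minus the other IL-10 positive groups for named genes. Adjusted p is Benjamini-Hochberg over all tested genes, with calls below 0.05. Standard errors follow from the F statistic. An exact permutation test of 3 libraries against 3 cannot give a p below 0.1 and was not used. A group at 0 was set to 3 counts over the group for bounds, and a group of 1 to 3 counts got an exact 95% interval. Alternatives were median-of-ratios scaling, DESeq2 1.42.0, no filter, only the compared libraries, thinning to 1 depth of 4394658 counts and leaving out each replicate. Tested on simulated data, 92% of genes changed 2-fold and 14% of those changed 1.25-fold were recovered in the first comparison, with 3.55% of calls false (11899 genes run). There a small set of genes above 1 CPM was changed in 1 group, and all other genes were equal in all groups. In the real comparison 65.1% of genes were called, so the simulated shares are not error rates of the reported calls.

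The text names the 15 highest and 15 lowest called genes of at least 10 CPM in the higher group, 53 fixed genes, the largest called members of at least 5 CPM of each of 46 lists and the 8 highest and 8 lowest called differences of differences among genes with at least 10 CPM in 1 of the 4 groups; genes with only a clone or locus number were counted but not named, and a few genes that the rule names are not reported here. Further members given as exceptions or examples of a role were chosen after their values were seen. The comparison, lists and fixed genes were chosen with earlier results of these data known. Replicate numbers are shared between the 2 compartments of a culture but not between Tr1 and Th17. Same-numbered libraries did not deviate together in any of 15 pairs (correlations of -0.046 to 0.055, none over 0.1).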

Additional observations from a re-analysis of the deposited data

Results flagged for a closer look

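The gap between Tr1 and Th17 differed between IL-10 positive and IL-10 negative cells for the genes below, by edgeR's test of the difference of differences (IL-10 positive log2 fold change minus IL-10 negative log2 fold change).

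Among genes with a symbol and at least 10 CPM in 1 of the 4 groups, the 8 largest positive differences were 7.69 for Sytl2, 7.09 for Serpinb5, 6.89 for S100a4, 6.61 for Prf1, 6.59 for Gzmb, 6.26 for Ggt1, 5.79 for Ccl5 and 5.62 for Gzma, with adjusted p-values of 4.62e-14, 1.19e-23, 2.57e-04, 9.39e-22, 0.018, 1.29e-23, 3.72e-05 and 2.72e-08. Sytl2, which encodes a protein of vesicle traffic, read 27.1, 27.4 and 26.6 CPM in Tr1 libraries, against 0.291, 0.841 and 0.281 CPM in Th17 libraries in positive cells; it read 0, 0.568 and 0.996 CPM in Tr1 IL-10 negative libraries, against 3.28, 1.82 and 1.55 CPM in Th17 IL-10 negative libraries. S100a4, a calcium-binding protein gene, read 13.7, 9.62 and 9.97 CPM in Tr1 libraries, against 0.0970, 0 and 0.187 CPM in Th17 libraries in positive cells, 116-fold higher with a counting interval of 39.0 to 569. In negative cells it was at or near 0 in both, at 0.609, 0 and 0 CPM in Tr1 and 0.491, 0 and 0.155 CPM in Th17 IL-10 negative libraries, and its difference lost its call without Th17 IL-10 negative replicate 10 (5.59, adjusted p = 0.0704). Gzma read 8.32, 9.28 and 14.7 CPM in Tr1 IL-10 negative libraries, against 2.79, 3.95 and 2.78 CPM in Th17 IL-10 negative libraries, so that granule genes were lower in Tr1 IL-10 negative than in Tr1 IL-10 positive libraries and higher in Th17 IL-10 negative than in Th17 IL-10 positive libraries for Prf1 and Gzma.

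Under the same limit, the 8 largest negative differences were -2.98 for Slc2a6, -2.99 for Acsl1, -3.32 for Prss12, -3.55 for Ldhd, -3.83 for Abcb6, -4.14 for Lif, -7.93 for Apol7b and -11.89 for Tmem254c, with adjusted p-values of 2.57e-05, 3.11e-06, 1.95e-07, 1.77e-05, 2.89e-05, 5.10e-16, 5.37e-04 and 0.0128. Lif read 7.11, 16.1 and 10.5 CPM in Tr1 IL-10 negative libraries, against 19.7, 19.3 and 14.5 CPM in Th17 IL-10 negative libraries, while in positive cells it read 4.01, 5.61 and 5.10 CPM in Tr1 libraries, against 141, 140.01 and 132 CPM in Th17 libraries. Apol7b and Tmem254c were at 0 in all Tr1 IL-10 positive libraries, so their fitted differences depend on the prior count. Tmem254c read 15.04, 24.9 and 6.36 CPM in Th17 IL-10 positive libraries and, as one of several near-identical copies, is uncertain.

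Of 53 fixed genes, 7 were called in opposite directions in the 2 compartments, higher in Tr1 among positive and lower in Tr1 among negative cells, as were 217 of 12611 tested genes (1.72%). Their differences were 2.67 for Il10, 1.68 for Cxcr6, 1.6 for Socs3, 1.05 for Smad7, 0.97 for Il27ra, 0.81 for Lag3 and 0.58 for Tgfbr2. The adjusted p-values of the difference were 4.02e-04, 5.88e-04, 2.62e-14, 1.61e-05, 5.77e-11, 1.22e-09 and 0.00105. In positive cells Tgfbr2 lost its call under several alternatives and Smad7 with no filter on low counts, so the count of 7 depends on the processing. Il10 is the gene on whose reporter the cells were sorted. In negative cells it averaged 0.474 CPM in Tr1 and 1.66 CPM in Th17, with overlapping groups. Lag3 read 419, 419 and 430.1 CPM in Tr1 IL-10 negative libraries, against 583, 509.9 and 517 CPM in Th17 IL-10 negative libraries, and Il27ra 173, 152 and 162 CPM in Tr1 IL-10 negative libraries, against 248, 242 and 229.9 CPM in Th17 IL-10 negative libraries.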

How the results depend on the processing

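Counts of called genes over all tested genes that were rerun stayed within 1.5 times their reported value under every alternative, except 1. Genes at least 2-fold higher in Tr1 numbered 3334 with no filter on low counts, against 2198. Those at least 2-fold lower numbered 2075, against 1719. Without the filter 22231 genes were tested, and the cause of the uneven change was not tested. Some counts were not rerun: at least 2-fold calls in IL-10 negative cells and for the difference of differences, opposite calls, calls shared between compartments, and non-overlapping groups. All called genes numbered 7351 (thinned to 1 depth) to 9523 (no filter), and 8149 with DESeq2. Leaving out each replicate in turn gave 7803 to 8082 called genes (3917 to 4144 higher, 3802 to 3973 lower), 4416 to 4487 in IL-10 negative cells and 4413 to 4797 for the difference of differences. Without the filter the median log2 fold change of all genes moved by -0.149. Of 92 counts of list members called in 1 direction, 18 moved by more than 1.5 times under at least 1 alternative. Among them, members called higher numbered 2 (TGF-beta pathway, reported as 6), 10 (ribosomal proteins, 16), 1 (oxidative phosphorylation, 3), 1 (amino acid response, metallothioneins and zinc transporters, MHC class II and cytokines, 2 each), 1 (DNA replication, 0), 0 (TGF-beta induced genes, 2) and 0 (Th2 genes, 1) at their farthest; members called lower numbered 5 (ribosomal proteins, 2) and 3 (T cell receptor complex, 1). The others were marker lists of other cells.

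Of 229 named genes 212 were called; 1 of these, Junb, changed direction under the 11 alternatives (-0.012 with no filter, 0.073 to 0.16 without 1 replicate) and 9 lost the call under at least 1: Junb, Il1rl1, Eomes, Tgfbr2, Smad7, Socs1, Il16, H2-DMb1 and H2-Eb1. Of 17 not called, 4 gained a call: Oasl2 (2.23 with DESeq2, adjusted p = 0.0392; 5.22 without Th17 replicate 12 and 2.44 without Tr1 replicate 18), Tyms, and, with no filter, Cd4 (-0.21) and Il6st (-0.25). Uncalled genes near 0 turned sign. Stat3 read 0.020 with median-of-ratios scaling and with DESeq2, 0.0095 with only the compared libraries, 0.030 thinned and between -0.079 and 0.038 without 1 replicate (the highest without Tr1 replicate 16). Egr2 read 0.0060 with median-of-ratios scaling, 0.0063 with DESeq2, 0.078 thinned and between -0.052 and 0.00091 without 1 replicate. Gata3 read -0.065 and Ccr7 -0.083 with no filter, Gata3 between -0.0025 and 0.12 without 1 replicate (the lowest without Tr1 replicate 17), and Itgae 0.15 thinned; the cause was not tested. Of the differences of differences, Gzmb (3.64 without Th17 IL-10 negative replicate 10, 6.2 thinned), S100a4 (without the same replicate) and Tmem254c (-8.97 without Tr1 IL-10 negative replicate 17) lost their calls.

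No paired analysis was possible because Tr1 and Th17 libraries share no replicate number. For the difference of differences, a replicate block on the number gave 4802 called genes, against 4863 without it; 6 of 15 IL-10 positive libraries correlated best with their own number. The floor of 3 counts over a group equals 0.218 CPM in Tr1 and 0.0946 CPM in Th17, and differences under it were not detectable.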
